A study of Mus musculus with 6 samples.

Results

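To describe how the detoxification enzymes of ILC2s responded to melatonin, 10 genes were taken by symbol from the normalised counts of 16381 genes: the quinone reductases *Nqo1* and *Nqo2*, the epoxide hydrolase *Ephx1*, the carbonyl reductase *Cbr1*, the glutathione transferases *Gstp1*, *Gstk1*, *Mgst3* and *Gsto1*, the conjugate exporter *Abcc1* and the electron donor *Por*. All 10 had values in all 6 samples. The samples were aILC2s, group 2 innate lymphoid cells sorted by the authors to over 95% purity from the lungs of WT BALB/cJ mice that had received 0.5 µg of IL-33 per day intranasally for 3 days. The methods describe the mice as females of 6 to 8 weeks. Cells of 3 samples were then cultured for 24 h with 250 µM melatonin, and cells of 3 further samples with the DMSO vehicle, so that IL-33 exposure, sorting and culture were common to both groups. The labels do not say whether the 3 samples of a group came from separate mice or cultures, and p-values therefore measure the spread between these samples, which may be technical.

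Detoxification is usually described in steps. Phase I enzymes, chiefly the cytochromes P450 that POR supplies with electrons, add or expose a reactive group. Phase II enzymes reduce that group or join it to a carrier such as glutathione, and exporters of the ABCC family then move the conjugate out of the cell. NQO1 carries electrons from NADPH or NADH to quinones in a single pair, which avoids the semiquinone radical, whereas NQO2 prefers dihydronicotinamide riboside as its donor and is also known as MT3, a melatonin binding site that is not a receptor. *Nqo1* is a textbook target of NRF2, the transcription factor that KEAP1 holds in check, and also of the aryl hydrocarbon receptor AHR.

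Before the results, 2 properties of the libraries need to be stated. Transcripts of Y-linked genes were present in the 3 vehicle samples and in melatonin replicate 1, and *Xist* was at 579 and 1091 normalised counts in melatonin replicates 2 and 3, so 4 of the 6 libraries go against the sex given in the methods. None of the 10 genes lies on chromosome X or Y, and each is also given below without melatonin replicate 1 or with only the 4 libraries that hold Y-linked transcripts, where this alters what is said. The latter comparison holds a single melatonin sample, whose spread is taken from the vehicle samples although melatonin samples varied more for 9 of the 10 genes, so its values are given as a description and its p-values are not used. Without melatonin replicate 1, only vehicle samples hold Y-linked transcripts, so sex cannot be told apart from treatment there. Estimated counts per sample were between 17056264 and 20511704. The library names of the melatonin samples are numbered 20 to 22 and those of the vehicle samples 32 to 34, and a batch of libraries along this numbering cannot be told apart from the treatment.

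All 16 ILC2 markers had values in all 6 samples. *Gata3*, the lineage factor, was between 17890 and 24588 normalised counts, and *Il1rl1*, which encodes ST2, between 7698 and 16787. Most of the markers were lower with melatonin, among them *Il7r*, which encodes the sort marker CD127 (mean of 1995 in vehicle and 1032 in melatonin), *Klrg1* (6799 and 1518), *Thy1* (389 and 53.7) and *Id2* (22266 and 12378). The 16 markers together summed to 229262 to 244473 in vehicle and 160134 to 176610 in melatonin, with 3 called higher and 9 lower by limma as described below. Summed markers of macrophages, of T, B and NK cells and of stroma were lower in every melatonin sample than in any vehicle sample, while those of epithelium and of granulocytes overlapped. Of 12 airway and alveolar epithelium markers, 8 had values, and their sum was 964 to 2412 in vehicle and 1061 to 1261 in melatonin. *Epcam* was higher with melatonin, at 623, 745 and 634 in vehicle samples and 1230, 1016 and 1046 in melatonin samples, while *Scgb1a1* was at 95.2, 21.6 and 1045 in vehicle samples and at 0, 0 and 1.01 in melatonin samples, and *Krt8* was at 0 in all 3 melatonin samples. Of 11 macrophage and monocyte markers, 9 had values, with sums of 3911 to 4785 in vehicle and 418 to 2446 in melatonin, and *C1qa* and *C1qb* were at 0 in all 3 melatonin samples. The 8 of 12 T, B and NK cell markers with values summed to 1728 to 1868 and 434 to 718, and the 3 of 7 stroma and endothelium markers to 1075 to 1137 and 338 to 503. The 5 of 10 granulocyte and mast cell markers summed to at most 87.7 in any sample. The part that other cells play in the 10 genes was not tested, and in bulk samples fewer cells of a type cannot be told apart from less RNA per cell.

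Of the 10 genes, 6 were higher with melatonin, 3 were lower and 1 did not pass the test. Here a gene is called when limma, fitted to the log2 of the normalised count plus 1 for the 14419 genes that reached 10 in 1 or more samples, gave an adjusted p below 0.05. The response to melatonin was broad: 24.5% of all tested genes were called higher and 24.7% lower, together 49.2%. The median log2 fold change of the 10 genes was 0.57, beside −0.0046 over all tested genes. The groups did not overlap for 9 of the 10 genes, 6 of them higher and 3 lower, beside 30.0% of all tested genes higher without overlap, 30.3% lower and 60.4% in either direction. With so few genes, the share called has to be read beside this background, and the values of the single genes carry the description. Without melatonin replicate 1, where sex cannot be told apart from treatment, the calls were 6 higher and 3 lower.

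**Figure D1:**
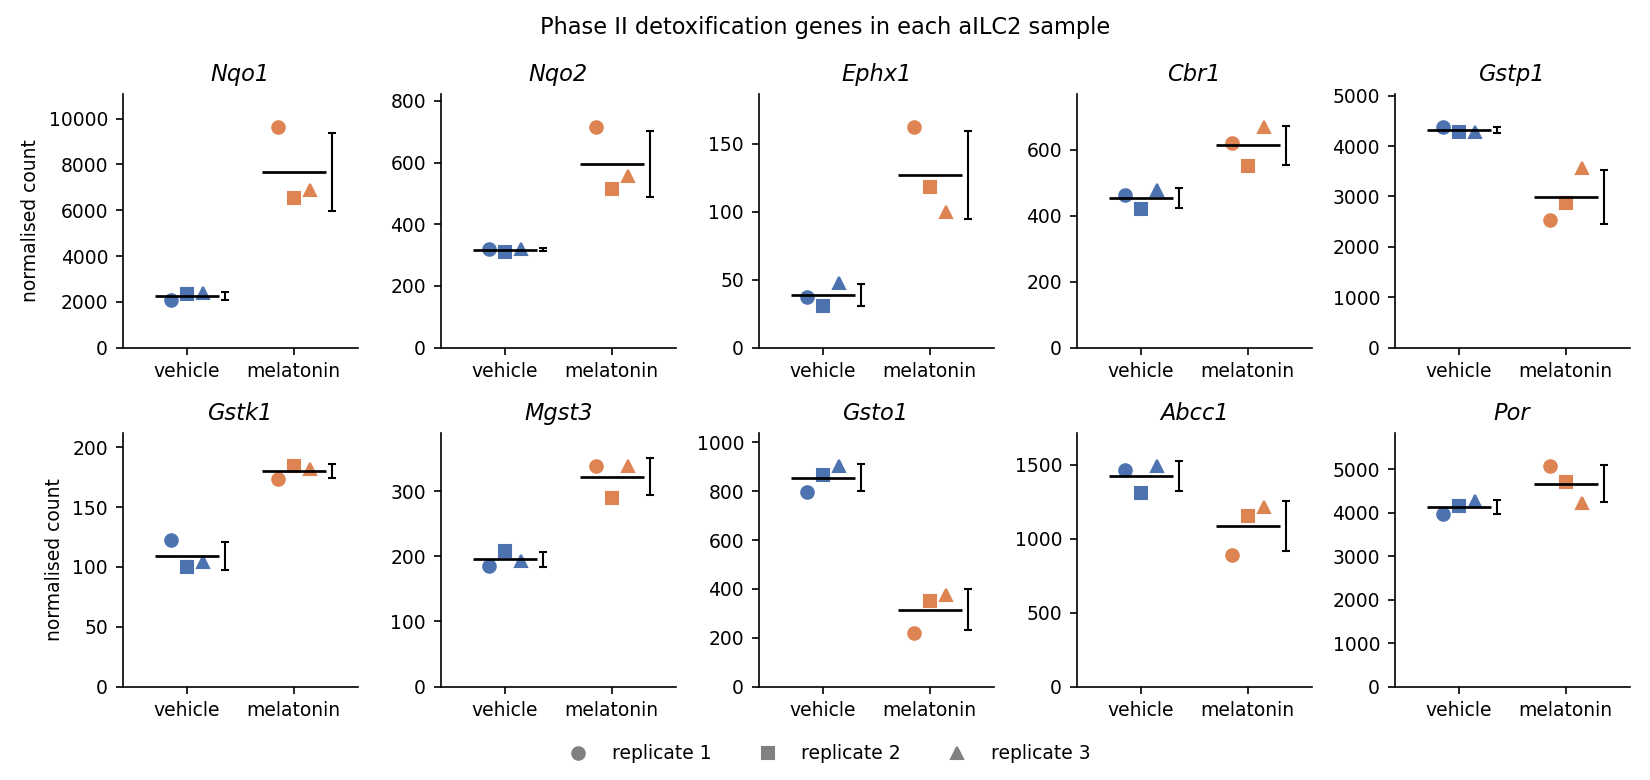
Normalised counts (y axis, linear from 0, separate scale per gene) of the 10 genes in the 3 vehicle and 3 melatonin samples. Symbols mark replicates, horizontal lines the group mean and bars 1 SD on each side of it. The groups overlap only for *Por*, and melatonin replicate 1 is the highest *Nqo1* sample at 9650.

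*Nqo1* and *Ephx1* rose most, and which of them stood first changed with the processing, *Ephx1* being ahead under quantile normalisation (1.82 against 1.80) and GC correction (1.70 against 1.67), for example. *Nqo1* was at 2073, 2358 and 2381 normalised counts in the vehicle samples and at 9650, 6514 and 6864 in the melatonin samples. The lowest melatonin sample was thus well above the highest vehicle sample, and melatonin replicate 1 stood above the other two. The mean was 3.38 times that of vehicle, and the log2 fold change was 1.74 ± 0.14 (SE, adjusted p = 6.41e-05, limma). In the order of all 14419 tested genes by log2 fold change, *Nqo1* was number 291 from the top. Without melatonin replicate 1 the log2 fold change was 1.56, and with only the libraries holding Y-linked transcripts it was 2.09. The gene (ENSMUSG00000003849) lies on chromosome 8 of GRCm39 from 108113835 to 108129934 on the minus strand.

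The region upstream of *Nqo1* is shown because this gene is the usual example of a gene with an antioxidant response element, the sequence bound by NRF2 with a small MAF protein. The core TGACNNNGC, searched on both strands, was absent from the 1000 bases before to 50 bases after its annotated start. The related core TGAGNNNGC, searched in addition after the first search, matched once on the sense strand at −339, outside the annotated gene. The stretch at chr8:108130240-108130298 (GRCm39, minus strand, written 5′ to 3′) has the match in capitals.
Nqo1 upstream: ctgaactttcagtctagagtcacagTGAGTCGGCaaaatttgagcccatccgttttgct
Of the promoters of 12051 tested coding genes, 43.24% hold TGAGNNNGC in a window of this length, so a match on its own is common. Of the 10 genes, *Nqo1* alone held it there, and in the 300 bases nearest the start 0 of the 10 did, beside 18.3% of all.

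*Nqo2*, the MT3 site, also rose, from 319, 311 and 320 normalised counts in vehicle samples to 716, 515 and 556 in melatonin samples. The vehicle samples had a coefficient of variation of 1.56%, and all 3 melatonin samples were above them. The mean rose 1.88-fold and the log2 fold change was 0.89 ± 0.14 (SE, adjusted p = 9.16e-04, limma). It was 0.75 without melatonin replicate 1 and 1.17 with only the libraries holding Y-linked transcripts. Per kb of the longest coding transcript, *Nqo1* was between 9.60 and 11.2 times as abundant as *Nqo2* in the vehicle samples, and between 18.2 and 19.9 times in the melatonin samples. The ratio was thus 10.6 ± 0.87 in vehicle and 18.95 ± 0.86 in melatonin (SD, n = 3 each, exact two-sided permutation p = 0.1, the smallest that 3 samples against 3 can give). *Nqo2* (ENSMUSG00000046949, chromosome 13, 34148427 to 34172448, plus strand) overlaps *Serpinb6a* on the opposite strand, which was at 2524 to 2685 in vehicle and 2021 to 2311 in melatonin. Whether the counting used strand is not given in the sources used here, so reads from an overlap cannot be assigned with certainty.

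*Ephx1*, the microsomal epoxide hydrolase that opens reactive epoxides to diols, was a low transcript that rose about as much as *Nqo1*. Its normalised counts were 37.3, 30.9 and 47.2 in vehicle samples and 163, 118 and 99.5 in melatonin samples. The lowest melatonin sample was more than 2 times the highest vehicle sample. The mean rose 3.29-fold, with a log2 fold change of 1.68 ± 0.26 (SE, adjusted p = 9.24e-04, limma). Its coefficient of variation was 21.3% in vehicle and 25.6% in melatonin, the former being the largest of the 10 genes in that group. The log2 fold change was 1.49 without melatonin replicate 1. *Ephx1* (ENSMUSG00000038776, chromosome 1, 180803775 to 180848537, minus strand) overlaps *Tmem63a* on the opposite strand, at 441 to 481 in vehicle and 456 to 665 in melatonin.

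*Cbr1* encodes the cytosolic carbonyl reductase that reduces quinones, prostaglandins and reactive aldehydes with NADPH. It was at 464, 421 and 476 normalised counts in vehicle samples and at 620, 552 and 670 in melatonin samples. The groups did not overlap, but the gap between them was smaller than for the quinone reductases. The rise was 1.35-fold, with a log2 fold change of 0.43 ± 0.11 (SE, adjusted p = 0.0113, limma), and the call was lost without vehicle replicate 2, at 0.38 with an adjusted p of 0.0527. *Cbr1* (ENSMUSG00000051483, chromosome 16, 93402741 to 93407393, plus strand) has the related *Cbr3* within 100 kb, which was low at 10.3, 3.75 and 13.6 in vehicle and 22.4, 13.1 and 21.1 in melatonin and did not pass the test.

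The glutathione transferases did not move together. *Gstk1* and *Mgst3* rose, and *Gstp1* and *Gsto1* fell. *Gstk1*, the kappa-class enzyme of mitochondria and peroxisomes, was at 122, 100.3 and 104 normalised counts in vehicle samples and at 174, 185 and 182 in melatonin samples. The melatonin samples were close together, at a coefficient of variation of 3.17%, and clear of the vehicle samples. The rise was 1.66-fold, with a log2 fold change of 0.73 ± 0.15 (SE, adjusted p = 0.00446, limma). Unlike most of the 10 genes, *Gstk1* was not furthest from vehicle in melatonin replicate 1, and its log2 fold change with only the libraries holding Y-linked transcripts was 0.68. The gene (ENSMUSG00000029864) lies on chromosome 6 from 42222830 to 42227386.

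*Mgst3* encodes a microsomal, membrane-bound transferase with peroxidase activity. It was at 186, 208 and 193 normalised counts in vehicle samples and at 339, 290 and 338 in melatonin samples. Replicates 1 and 3 of melatonin were almost equal and replicate 2 was lower, though still above all vehicle samples. The mean rose 1.65-fold, with a log2 fold change of 0.71 ± 0.13 (SE, adjusted p = 0.00207, limma). *Mgst3* (ENSMUSG00000026688) lies on chromosome 1 from 167196550 to 167221687.

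*Gsto1* fell most. This omega-class enzyme, which reduces dehydroascorbate and mixed disulphides of glutathione rather than conjugating electrophiles, was at 795, 865 and 904 normalised counts in vehicle samples. In melatonin samples it was at 219, 350 and 375. The highest melatonin sample was far below the lowest vehicle sample, and replicate 1 was the lowest of all. The vehicle mean was 2.72 times the melatonin mean, and the log2 fold change was −1.47 ± 0.19 (SE, adjusted p = 4.20e-04, limma), −1.24 without melatonin replicate 1 and −1.95 with only the libraries holding Y-linked transcripts. *Gsto1* (ENSMUSG00000025068, chromosome 19, 47842686 to 47853229) overlaps *Cfap43* on the opposite strand, which was at no more than 13.1 in any sample. Its neighbour *Gsto2* was at 9.33, 3.75 and 2.10 in vehicle samples and 1.87, 9.83 and 7.04 in melatonin samples, below the minimum for testing.

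*Gstp1*, the pi-class enzyme, was the most abundant transferase and fell. It was at 4385, 4285 and 4282 normalised counts in vehicle samples and at 2528, 2875 and 3573 in melatonin samples. The vehicle samples were nearly equal, and the melatonin samples were spread over 1045 counts below them. The vehicle mean was 1.44 times that of melatonin, and the log2 fold change was −0.54 ± 0.12 (SE, adjusted p = 0.00536, limma). When each sample was corrected for transcript length, the log2 fold change was −0.20 and the call was lost (adjusted p = 0.0698). The longest coding transcript of *Gstp1*, at 904 bases, was the shortest of the 10 genes.

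The value of *Gstp1* is also uncertain because its sequence is shared. Of the 50-base windows of its longest transcript, 56.3% occur unchanged in another gene, all in *Gstp2* and part of them also in the pseudogene *Gstp-ps*. Over the 633 coding bases of *Gstp1*, 97.3% of aligned positions were identical in *Gstp-ps* and 98.1% in *Gstp2*, with an unbroken shared run of 303 bases in each. The 60 bases after the start codon, from coding position 4 to 63 of *Gstp1*, are a part where the copies can be told apart. Capitals mark bases that differ from *Gstp1* at the same position, 5 in *Gstp-ps* and 6 in *Gstp2* (transcripts of GENCODE M39, GRCm39). The whole alignments hold 17 differing positions for *Gstp-ps* and 12 for *Gstp2*.
Gstp1: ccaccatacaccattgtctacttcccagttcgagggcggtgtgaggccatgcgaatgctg
Gstp-ps: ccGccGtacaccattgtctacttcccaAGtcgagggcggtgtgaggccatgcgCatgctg
Gstp2: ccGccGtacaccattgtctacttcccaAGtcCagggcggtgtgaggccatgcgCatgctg
*Gstp-ps* was listed at 1388, 1351 and 1387 normalised counts in vehicle samples and at 793, 904 and 1140 in melatonin samples. Its ratio to *Gstp1* was between 0.314 and 0.324 in all 6 samples, whereas *Gstp2* was at or under 3.19 in each. The sum of *Gstp1* and *Gstp-ps* was 5692 ± 71.7 in vehicle and 3937 ± 709 in melatonin (SD, n = 3 each), a log2 ratio of −0.53. *Gstp3*, the next pi-class gene on chromosome 19, shared no 50-base window with another transferase and was at 343, 276 and 312 in vehicle samples and 191, 140 and 169 in melatonin samples, with a log2 fold change of −0.90 ± 0.16 (SE, adjusted p = 0.0019, limma). *Gstp1* (ENSMUSG00000060803) lies on chromosome 19 from 4085405 to 4088068, and the other 8 genes besides *Gstp1* and *Cbr1* shared at most 0.778% of their windows with any other gene.

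To compare the transferases with each other, levels were expressed per kb of the longest coding transcript. They were then given as a percentage of the sum over 24 genes named Gst or Mgst. The pseudogene *Gstp-ps* is among the 24 and took 24.74%, 24.53% and 24.95% in vehicle samples and 20.07%, 22.89% and 24% in melatonin samples. *Gstp1* took 54.6%, 54.3% and 53.8% of this pool in the vehicle samples and 44.7%, 50.8% and 52.5% in the melatonin samples. The difference of the means was −4.91 percentage points, and −2.58 without melatonin replicate 1. *Gsto1* took 4.63%, 5.13% and 5.31% in vehicle samples and 1.81%, 2.89% and 2.58% in melatonin samples. Both shares were lower in every melatonin sample than in any vehicle sample. *Gstk1* went the other way, from 1.26% ± 0.13 to 2.77% ± 0.28, as did *Mgst3*, from 1.43% ± 0.096 to 3.13% ± 0.32 (SD, n = 3 each). For these 4 shares the exact two-sided permutation p was 0.1, the smallest that 3 samples against 3 can give. The changes in share of *Gstk1*, *Mgst3* and *Gsto1* were larger in a pool without near-identical copies, as given below. The pool as a whole was 8888, 8728 and 8807 per kb in vehicle samples and 6262, 6261 and 7528 in melatonin samples. *Gstm1*, which shares 13.5% of its windows with other mu-class genes, took 13.7% of the pool in melatonin replicate 1 but 5.197% and 5.08% in replicates 2 and 3, beside 3.91% to 4.14% in vehicle samples.

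**Figure D2:**
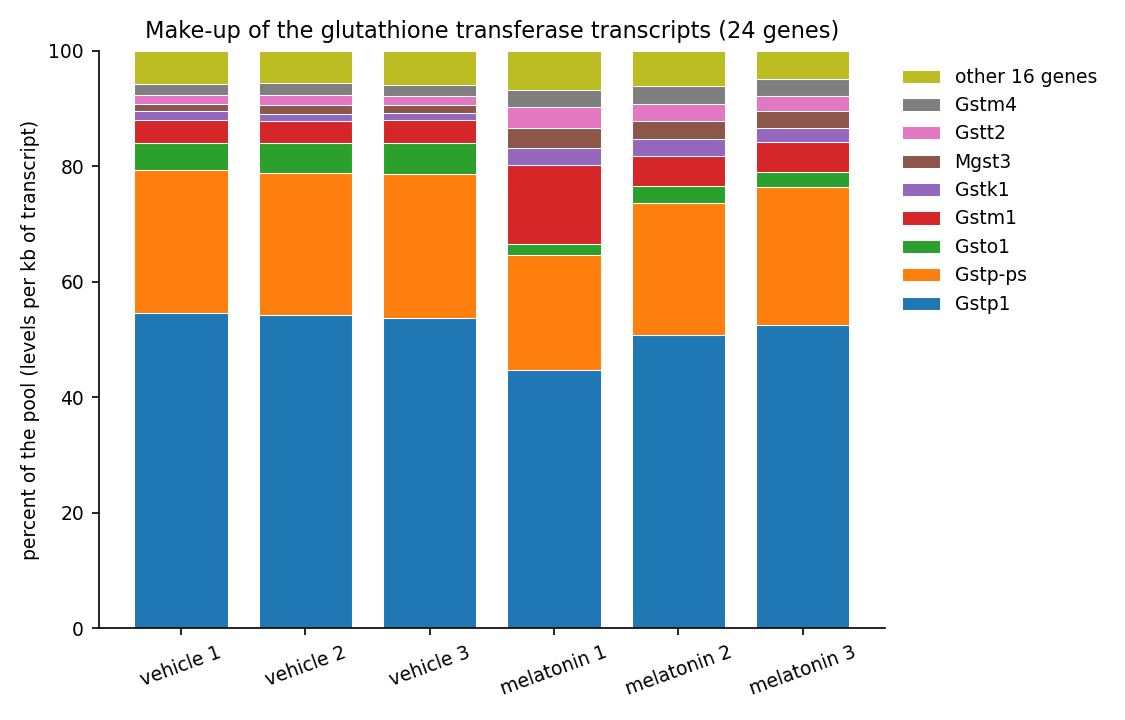
Share of each gene in the summed transcripts of 24 genes named Gst or Mgst, the pseudogene *Gstp-ps* among them. Stacked bars give the percent of levels per kb of transcript (y axis) in each of the 6 samples. *Gstp1* and *Gstp-ps* together fill most of each bar, *Gsto1* is narrower in the 3 melatonin samples, and *Gstm1* is wide in melatonin replicate 1 alone.

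*Abcc1*, the exporter MRP1 that carries glutathione conjugates and leukotriene C4, fell slightly. It was at 1467, 1305 and 1493 normalised counts in vehicle samples and at 891, 1153 and 1211 in melatonin samples. The groups did not overlap, but melatonin replicates 2 and 3 were close to vehicle replicate 2. The vehicle mean was 1.31 times that of melatonin, and the log2 fold change was −0.40 ± 0.12 (SE, adjusted p = 0.0261, limma). This call was lost without vehicle replicate 1 (adjusted p = 0.0779) or vehicle replicate 3 (0.0871), and the log2 fold change was −0.26 without melatonin replicate 1 and −0.67 with only the libraries holding Y-linked transcripts. *Abcc1* (ENSMUSG00000023088) lies on chromosome 16 from 14179311 to 14293601.

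*Por*, the reductase that hands electrons from NADPH to microsomal cytochromes P450, heme oxygenase and squalene epoxidase, was not called. It was at 3973, 4162 and 4282 normalised counts in vehicle samples and at 5088, 4707 and 4235 in melatonin samples. Melatonin replicate 3 lay within the range of the vehicle samples and the other 2 lay above it. The log2 fold change was 0.17, with a 95% interval of −0.02 to 0.37 (adjusted p = 0.124, limma), so a rise of up to 0.37 is within the interval. It was called at 0.24 without melatonin replicate 3 (adjusted p = 0.0372), and was at 0.11 without melatonin replicate 1 and at 0.30 with only the libraries holding Y-linked transcripts. *Por* (ENSMUSG00000005514, chromosome 5, 135698887 to 135764182) overlaps *Tmem120a* on the opposite strand, at 1028 to 1031 in vehicle and 1049 to 1173 in melatonin.

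**Figure D3:**
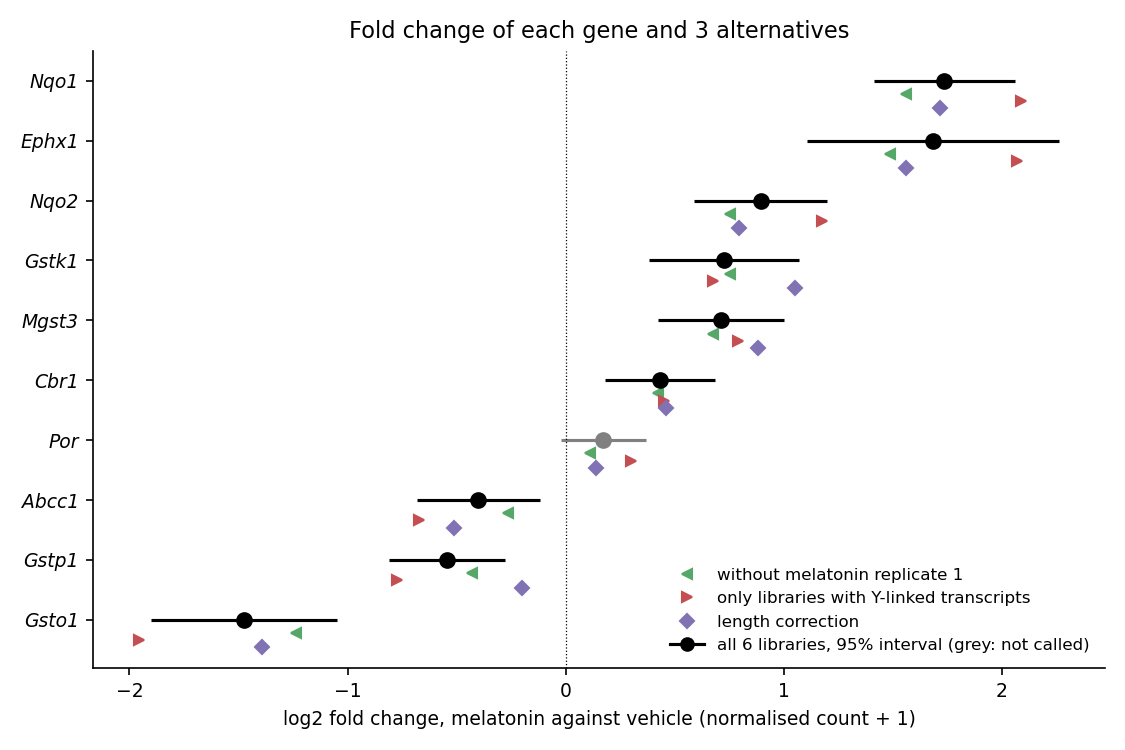
Log2 fold change of each gene (x axis, melatonin against vehicle, on the log2 of normalised count plus 1) with its 95% interval from limma, and the value without melatonin replicate 1, with only the libraries holding Y-linked transcripts, and after correction for transcript length. *Nqo1* is highest at 1.74 and *Gsto1* lowest at −1.47, and the length-corrected value of *Gstp1* moves to −0.20.

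The spread among melatonin samples was shared across genes. Melatonin replicate 1 was furthest from the vehicle mean on the log2 scale for 8 of the 10 genes and for 7 of the 9 called genes. Over all 7094 called genes it was furthest for 56.1%, beside 30.3% for replicate 2 and 13.5% for replicate 3. The part of the Y-linked transcripts of this library in its distance was not tested. Coefficients of variation were between 1.36% and 21.3% in vehicle and between 3.17% and 26.5% in melatonin.

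To place the 10 genes among related enzymes, further lists were counted. All list counts are to be read beside the 24.5% of all tested genes called higher and the 24.7% called lower. Among 33 other glutathione transferases and related proteins, 23 were tested, of which 1 was higher and 10 were lower, with a median log2 fold change of −0.32. Without melatonin replicate 1 the counts were 2 higher and 10 lower, and after length correction 3 higher and 8 lower. *Gstt2*, a theta-class transferase, was the gene called higher with all libraries, from 358, 399 and 360 to 591, 499 and 527 normalised counts. The largest falls among abundant members were those of *Eef1g*, a translation elongation factor subunit with a transferase-like domain, from 3992, 3847 and 3689 to 1114, 1609 and 1813, and of *Gstp3*. The alpha-class *Gsta1* and *Gsta2* were also lower, at 2.81 to 11.2 in vehicle samples and 0 in all melatonin samples. The part of other cells in these low values was not tested.

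Among 32 other quinone, carbonyl and aldehyde reductases, 28 were tested, 9 were higher and 5 lower. *Akr1c13*, an aldo-keto reductase of the family that acts on hydroxysteroids, rose from 1496, 1579 and 1342 to 12378, 5220 and 4784 normalised counts, with a log2 fold change of 2.20 ± 0.30 (SE, adjusted p = 5.88e-04, limma). *Akr1c12*, from the same gene cluster, rose from 92.9, 70.9 and 76.6 to 309, 176 and 192. As with *Nqo1*, melatonin replicate 1 was the highest sample for both. Reads shared between these related genes were not examined. *Cryz*, which encodes zeta-crystallin, a quinone reductase that transfers single electrons, fell from 250, 238 and 217 to 72.4, 146 and 145, and *Akr1a1*, the aldehyde reductase, from 9567, 9337 and 9269 to 7890, 6742 and 7615.

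Of 6 other epoxide hydrolases and related hydrolases, 5 were tested, with 2 higher and 1 lower, or 1 higher and 1 lower after length correction. *Lta4h*, which makes leukotriene B4, rose by 0.23 on the log2 scale (adjusted p = 0.0427, limma) and the related aminopeptidase *Rnpep* fell by 0.41. *Ephx2*, the soluble epoxide hydrolase, was at 2.80, 0.937 and 4.20 in vehicle samples and at 0.934, 15.3 and 3.02 in melatonin samples. Among 18 other drug and conjugate exporters, 12 were tested, 5 were higher and the other 7 did not pass the test, at a median log2 fold change of 0.04. After length correction 3 were higher. *Abcc5* rose from 230, 230 and 249 to 408, 429 and 404, and *Abcb10*, a transporter of mitochondria, from 172, 191 and 197 to 274, 278 and 275.

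A list of 42 genes around *Por* held cytochromes P450, other enzymes that take electrons from it, and the separate reductase and ferredoxin systems, which do not depend on it. Of these 28 were tested, 8 were higher and 5 lower, but after length correction 3 were higher and 7 lower. *Cyp4f13* rose from 56.0, 62.8 and 48.3 to 396, 366 and 354 normalised counts, a log2 fold change of 2.72 ± 0.16 (SE, adjusted p = 1.77e-05, limma). *Pgrmc1*, a heme-binding partner of cytochromes P450, rose by 0.47 on the log2 scale. *Cyp1a1*, the standard target of AHR, fell from 269, 339 and 324 to 167, 67.7 and 37.2, and *Fdx2*, a mitochondrial ferredoxin that is not served by POR, from 933, 936 and 913 to 295, 290 and 384.

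**Figure D4:**
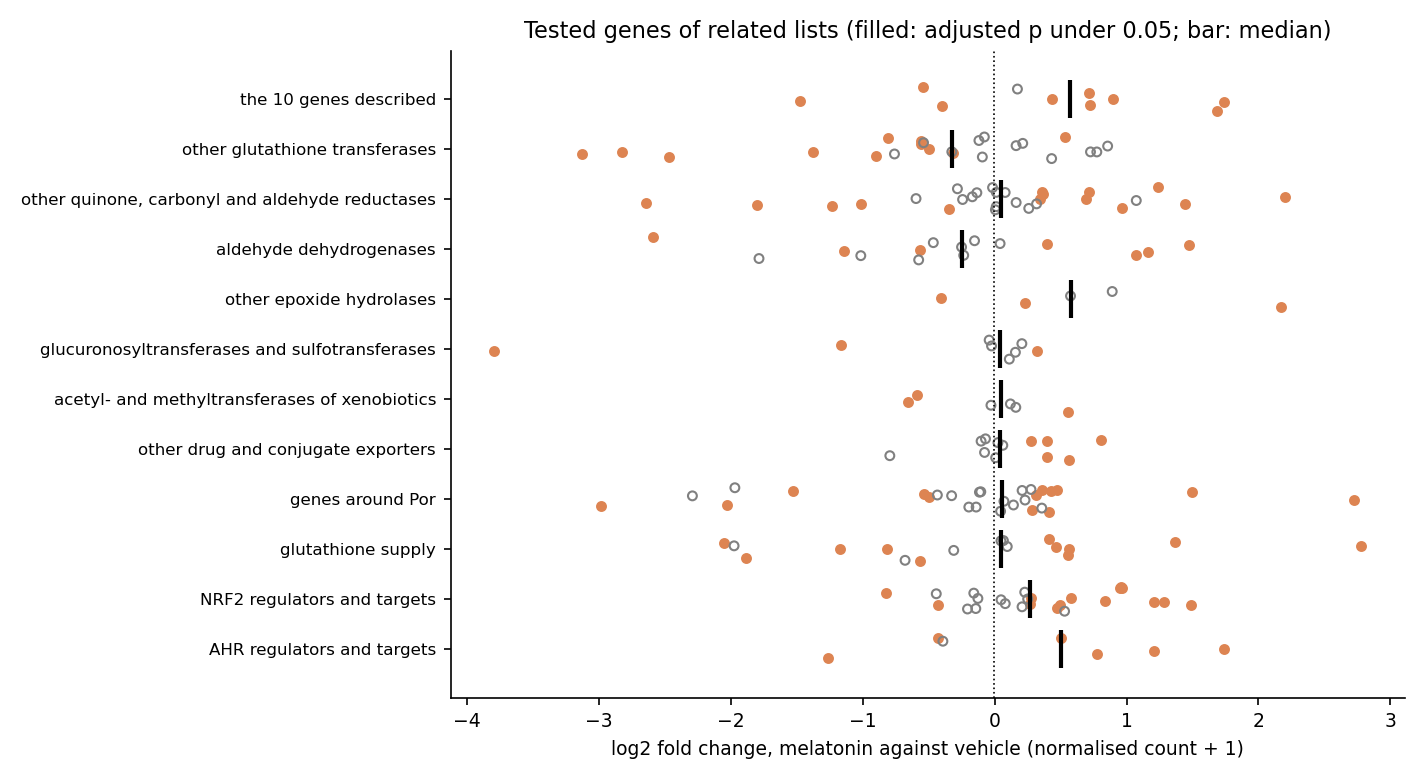
Log2 fold change of each tested gene (x axis, melatonin against vehicle, on the log2 of normalised count plus 1) in the 10 genes described and in 11 related lists. Filled points passed an adjusted p of 0.05, open points did not, vertical bars mark list medians and the dotted line marks the median of all tested genes, −0.0046.

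The regulators that are usually named for these enzymes were measured too. Among 25 NRF2 regulators and targets, 12 were higher and 2 were lower, with a median log2 fold change of 0.27. *Ftl1*, the ferritin light chain, rose from 41795, 42351 and 42940 to 128846, 109074 and 119795 normalised counts, and *Srxn1*, which repairs peroxiredoxins, from 2070, 2281 and 2017 to 5618, 4958 and 4961. *Tkt*, the transketolase, fell by 0.43 on the log2 scale. *Nfe2l2*, which encodes NRF2, rose from 916, 1006 and 922 to 2637, 2126 and 1881. Of 18 genes of glutathione supply, 17 were tested, 6 were higher and 5 lower. *Gclc*, the catalytic subunit of the enzyme that starts glutathione synthesis, rose by 2.78 on the log2 scale and *Gclm* by 1.37, while *Lap3* and *Cndp2*, peptidases that release amino acids from dipeptides, fell by 1.17 and 0.82. Of 7 AHR regulators and targets, 4 were higher and 2 lower. *Ahr* rose from 300, 416 and 463 to 1358, 1400 and 1139, while *Ahrr*, its repressor and target, fell from 589, 534 and 454 to 420, 138 and 178. *Tiparp*, another target of AHR, rose from 2113, 1990 and 2000 to 3781, 3538 and 3139, so the AHR targets measured here moved in both directions.

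The promoters of all 10 genes were searched for the cores of both regulators' binding sequences, on both strands and around the canonical start of GENCODE M39. In the 300 bases from 250 before to 50 after the start, TGACNNNGC was found in 0 of the 10 promoters and in 13.74% of all 12051, and GCGTG, the core of the xenobiotic response element, in 5 of the 10 and in 49.56% of all. From 1000 bases before the start, TGACNNNGC was found in 4 of the 10, *Cbr1*, *Ephx1*, *Gsto1* and *Por*, beside 32.25% of all, and GCGTG in 8 of the 10, beside 70.84%. The 4 genes with TGACNNNGC include rising, falling and uncalled genes, and 3 of these stretches are printed to show how the letters vary, with the match, on the antisense strand in each, in capitals. The matches start at −616 in an intron of *Ephx1* (chr1:180845717-180845775, minus strand), at −988 outside *Gsto1* (chr19:47841686-47841731, plus strand) and at −307 in an intron of *Por* (chr5:135717558-135717616, plus strand), all in GRCm39.
Ephx1 upstream: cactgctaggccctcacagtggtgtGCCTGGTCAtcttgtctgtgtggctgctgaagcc
Gsto1 upstream: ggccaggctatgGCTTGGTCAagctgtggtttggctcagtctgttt
Por upstream: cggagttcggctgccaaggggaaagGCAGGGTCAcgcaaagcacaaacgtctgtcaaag
In *Por* this match overlaps a GCGTG match on the same strand by its last bases. A match describes letters only, and a window without a match says only that these letters are not in it.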

How the data were processed

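RNA of 6 samples was sequenced after cDNA synthesis from 10 ng of RNA per the labels, or 10 pg per the methods. Per the methods, the authors used Partek Flow to trim by quality, STAR for alignment to mm39 and the Partek E/M algorithm, which can divide shared reads among genes, for Gencode gene counts. The methods state that genes staying under 10 counts were dropped, but the deposited table does not show that filter as stated, since 14419 of its 16381 genes reached 10 normalised counts in any sample. The authors normalised by the median ratios of DESeq2. The deposited values were therefore treated as a signal, called normalised counts. Of values under 60, between 72.0% and 73.6% per sample were whole multiples of the value of 1 read at a tolerance of 0.01, so whole reads were not recovered, and estimated counts are values divided by that step. No sample was a copy of another (chi-square per degree of freedom 6.33 to 37.2 within groups and 87.4 to 188 between groups).

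Differences were tested with limma 3.58.1 (R 4.3.3), by lmFit and eBayes with a trend, on log2(value + 1), treatment as the only term, with Benjamini-Hochberg adjustment over all 14419 genes. It was also run on simulated data with 200 changed genes. In the data themselves 7094 genes were called, so that simulation does not show how the test behaves here. Shares and ratios used exact permutation tests, which cannot give a two-sided p below 0.1 here. Positions, lengths and GC content came from GENCODE M39 on GRCm39, which named 16334 of the 16381 genes. Tables and figures were made with pandas 2.3.3 and matplotlib 3.10.9. The 10 genes and the lists were chosen with earlier results of these data known. All 10 genes were named, and from each related list up to 2 rises and 2 falls, the largest among genes that were called, averaged 100 or more and did not overlap between groups. A gene that this rule names is not reported here. Copies and genomic neighbours of the 10 genes were named whatever their values. Genes named outside this rule (*Gsta1*, *Gsta2*, *Gstm1*, *Ephx2*, *Tiparp*, *Ugdh*) were chosen after their values were seen. Alternatives were pseudocounts of 0.1 and 10, other filters, scalings and limma settings, the replicate block, voom, length and GC corrections, stricter thresholds and leaving out libraries.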

Additional observations from a re-analysis of the deposited data

How the results depend on the processing

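None of 209 values of the log2 fold changes under the alternatives changed sign. Calls are counted without the fit that holds 1 melatonin sample. Among the other values 7 lost the call, and only *Por* gained it. The number of the 10 genes called ranged from 5 to 7 higher and from 2 to 3 lower. *Gstp1* lost its call under length correction (−0.20). Without the trend *Abcc1* lost its call at the same −0.40, and at an adjusted p under 0.01 *Abcc1* (−0.40) and *Cbr1* (0.43) did. *Por* was called under quantile normalisation (0.26), GC correction (0.28) and without melatonin replicate 3 (0.24). With only libraries holding Y-linked transcripts the log2 fold change of *Por* was 0.30, but that fit has 1 melatonin sample and its p is not used. Leaving out each replicate gave 0.37 to 0.51 for *Cbr1*, −0.49 to −0.26 for *Abcc1* and 0.11 to 0.24 for *Por*. Over all genes, an adjusted p under 0.01 left 2188 higher and 2267 lower, and a log2 fold change of at least 0.5 left 2334 higher and 2661 lower. A further pool left out the 6 genes that share over 5% of their windows with another, *Gstp1* and *Gstp-ps* among them. In it, the change in share was 6.13 points for *Gstk1*, 6.89 for *Mgst3* and −17.7 for *Gsto1*. The causes were not tested. *Ephx1*, with a mean below 100, has no value where only genes with a mean of 100 or more were kept. Of 66 list counts under 3 alternatives, 15 moved by over 1.5 times.

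Same-numbered samples did not deviate together (correlations of −0.054, 0.0064 and −0.048; the highest of any pair was 0.11, for vehicle replicate 1 with melatonin replicate 3), so the numbers were not taken as pairs. With the replicate block, 6 of the 10 genes were higher and 3 lower, and 3160 and 3278 of all genes, in place of 3529 and 3565. Scaling moved the median of all genes to between −0.054 and 0.037. Values under about 3 reads (2.80 to 3.28 normalised counts) cannot be told from 0.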

Other observations

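Other conjugating and oxidising enzymes were counted in the same way. Of 19 aldehyde dehydrogenases, which oxidise the aldehydes that carbonyl reductases would reduce, 15 were tested, 4 were higher and 3 lower, with a median log2 fold change of −0.25. *Aldh6a1*, an enzyme of valine breakdown in mitochondria, rose from 157, 155 and 178 normalised counts in vehicle samples to 579, 462 and 348 in melatonin samples, and *Aldh4a1*, which completes proline breakdown, from 298, 317 and 344 to 788, 674 and 693. *Aldh7a1*, which acts in lysine breakdown, fell from 336, 327 and 316 to 240.0, 236 and 188.

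Of 29 glucuronosyltransferases, sulfotransferases and their suppliers, 8 had values. Among these, 1 was higher and 2 were lower. *Papss1*, which makes the sulphate donor of sulfotransferases, rose by 0.32 on the log2 scale (adjusted p = 0.0468, limma) and was not called without melatonin replicate 1 or after length correction. *Ugdh*, which makes the donor of glucuronosyltransferases, was at 1129, 1114 and 1090 in vehicle samples and at 1112, 1078 and 1089 in melatonin samples. Of 12 acetyl- and methyltransferases, 6 were tested, 1 was higher and 2 were lower, or 1 after length correction. *Tmt1a*, a thiol methyltransferase, rose from 274, 325 and 264 to 462, 375 and 433.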
